A study of Mus musculus with 24 samples.

Results

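The comparison described here asks, gene by gene, whether the difference between 2 mouse strains at rest was the same in both conventional dendritic cell (cDC) subsets of the spleen. For each gene the difference NOD minus B6 in CD11b+ cDC was subtracted from the difference NOD minus B6 in CD8+ cDC, which gives the interaction of subset and strain. A positive interaction means that NOD minus B6 was greater in CD8+ cDC. It means equally that CD8+ minus CD11b+ was greater in NOD. The comparison rests on the 12 arrays of mice injected with PBS, of 24 arrays in all, and was tested for 10669 of the 19938 genes with a name of their own.

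Each array measured RNA of cDC sorted from collagenase-digested spleens of female mice 8 to 10 weeks old, 12 h after the injection. The 4 groups were CD8+ cDC of B6, CD8+ cDC of NOD, CD11b+ cDC of B6 and CD11b+ cDC of NOD, all after PBS, with 3 arrays each. B6 is the C57BL/6 strain and served as control, and NOD is the nonobese diabetic strain; the labels name no further allele, transgene or agent. The other 12 arrays hold the same 4 kinds of cell after CpG-A and are used only as a second set of samples. Because the labels do not say whether the replicates came from separate mice, p-values measure the spread between these arrays, which may be technical.

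Spleen cDC present antigen to T cells and fall into a pair of lineages. The CD8+ subset, also called cDC1, depends on Batf3 and Irf8, carries Xcr1 and Clec9a, takes up dying cells and presents their antigens on MHC class I. The CD11b+ subset, also called cDC2, carries Clec4a4 (DCIR2) and presents mainly on MHC class II to CD4+ T cells. NOD mice develop autoimmune diabetes, their genome carries many differences from that of B6, and their dendritic cells have long been studied for altered maturation and tolerance. An interaction picks out genes whose measured strain difference, on the log2 scale, was not the same in both subsets.

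Values are log2 expression values between 1.92 and 14.1, so that a difference of 1 is a 2-fold ratio. The medians of the 12 arrays lay between 5.76 and 5.83, and each array correlated with the other arrays of its group at 0.981 to 0.987 on average. Values between 4 and 6 lie around or below an array's median, where a level is close to background, and precision is set by how few arrays there are. Where both strains lie in that range in 1 subset, as for Cd207 and Itgae in CD11b+ cDC, a strain difference there may not show. The subset labels matched their markers. Cd8a lay at 10.99 to 11.50 in CD8+ and at 5.04 to 7.31 in CD11b+ cDC, and Itgam, which encodes CD11b, at 4.45 to 5.39 and 8.54 to 9.03. The summed linear level of 25 cDC1 markers was 37136 to 40192 in CD8+ and 8067 to 9405 in CD11b+ cDC, and that of 21 cDC2 markers was 5855 to 7199 and 18437 to 20170, with the strains overlapping in each subset. In RNA of sorted cells, fewer cells of a type and less RNA per cell cannot be told apart.

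Each log2 difference below is followed by its standard error from limma, where each group has n = 3. The p-values are two-sided limma values with Benjamini-Hochberg adjustment over all genes tested. A gene is called where its adjusted p is under 0.05, and "rose" or "fell" is kept for called differences of NOD against B6.

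The interaction was called for 180 genes (1.69% of those tested), of which 92 were positive (0.862%) and 88 negative (0.825%). Positive calls had a median of 0.92 and ranged from 0.39 to 3.20, and negative calls had a median of -0.92 and ranged from -2.74 to -0.43. In each direction 41 genes reached a difference of at least 1. The median interaction over all genes tested was 0.01. With all 24 arrays in 1 fit 98 genes were called, 94 of them among the 180, and without replicate 3 of B6 CD8+ cDC the count was 114. Of the 180 calls, 70 held in each of the 25 alternatives that tested the gene, and none changed sign in any. Some genes, among them Scn3a, Nxpe4, Trem1, Vdr, Zfp872, Gbp2b, Ncr1, Ifi206, Lypd1, Vsx1 and Cd93, were tested in only 24 of the 25.

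Most of the 180 genes differed between the strains in only 1 of the subsets by the test of that subset. Over all genes NOD differed from B6 at 628 genes in CD8+ cDC (5.89%), with 350 higher in NOD (3.28%) and 278 lower (2.61%). In CD11b+ cDC the count was 889 (8.33%), with 406 higher (3.81%) and 483 lower (4.53%). Among the 92 positive genes the strain difference was called in CD11b+ cDC alone for 43, in CD8+ cDC alone for 32, in both the same way for 13, in both in opposite ways for 2 and in neither for 2. Among the 88 negative genes the same counts were 46, 19, 19, 2 and 2. Positive genes were thus mostly lower in NOD CD11b+ cDC (54 of 92) or higher in NOD CD8+ cDC (38 of 92), and negative genes mostly higher in NOD CD11b+ cDC (60 of 88) or lower in NOD CD8+ cDC (28 of 88). These counts use the arrays that define the interaction and describe its calls.

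**Figure D1:**
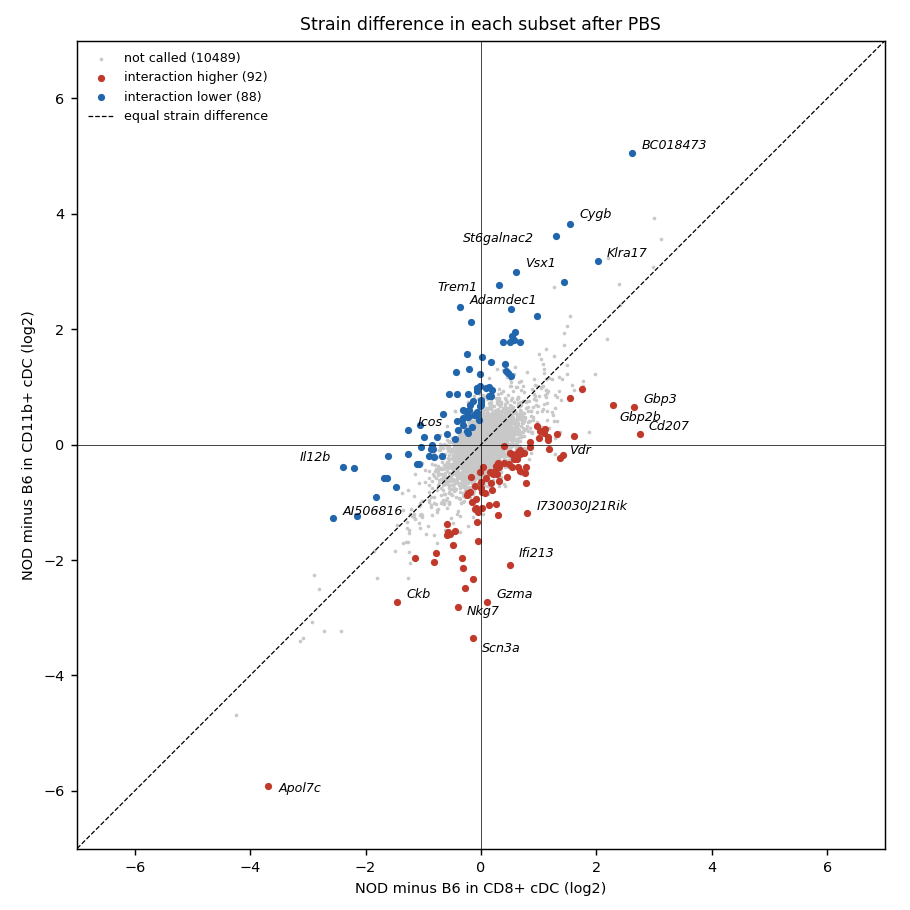
Each point is a gene, with NOD minus B6 in CD8+ cDC on the x axis and in CD11b+ cDC on the y axis, both as log2 differences between means of 3 arrays after PBS; red and blue points are the 92 positive and 88 negative calls, grey points the other genes tested, and the dashed line marks equal strain differences. Scn3a (-0.14 against -3.34) and Cygb (1.55 against 3.83) lie on opposite sides of that line.

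A first pattern was a gene higher in B6 CD11b+ cDC than in the other 3 groups. For 29 of the 92 positive genes all 3 arrays of B6 CD11b+ cDC lay above the other 9. In 16 of these no other group stood apart. The calls rest on the same arrays, and the share over all genes tested was not counted, so the count only describes the calls. Scn3a, which encodes an alpha subunit of a voltage-gated sodium channel, had the largest interaction of all. Its 3 values in B6 CD11b+ cDC were 7.49, 7.53 and 7.54, against 4.18, 4.18 and 4.18 in NOD CD11b+ cDC, 4.49, 4.20 and 4.75 in B6 CD8+ cDC and 4.33, 4.36 and 4.32 in NOD CD8+ cDC. The 3 arrays of B6 CD11b+ cDC thus stood above the other 9, none of which exceeded 4.75. The interaction was 3.20 ± 0.19 (adjusted p = 1.77e-07), and Scn3a fell by 3.34 in NOD CD11b+ cDC.

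Nxpe4, a member of the neurexophilin-like family, followed the same order. It measured 7.38, 7.22 and 7.22 in B6 CD11b+ cDC and between 4.76 and 5.15 on the other 9 arrays, with an interaction of 2.20 ± 0.17 (adjusted p = 3.15e-06). Gm4956, a predicted gene, measured 6.92, 6.45 and 6.13 in B6 CD11b+ cDC and between 3.86 and 4.58 elsewhere, with an interaction of 2.20 ± 0.25 (adjusted p = 0.000131). Outside B6 CD11b+ cDC these 3 genes lay below the medians of the arrays, so that they were tested through that group alone.

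Cybb and Csf2rb were lower in NOD CD11b+ cDC, while their strain difference in CD8+ cDC did not pass. Cybb, the catalytic subunit of the phagocyte NADPH oxidase, measured 10.94, 11.08 and 11.08 in B6 CD11b+ cDC against 9.73, 9.95 and 10.28 in NOD CD11b+ cDC. In CD8+ cDC the strains overlapped, at 9.47 to 9.94 in B6 and 9.59 to 10.00 in NOD. Cybb fell by 1.05 in NOD CD11b+ cDC, differed by 0.13 ± 0.14 in CD8+ cDC, and had an interaction of 1.18 ± 0.20 (adjusted p = 0.00489). Csf2rb, the signalling chain shared by the receptors for GM-CSF, IL-3 and IL-5, measured 9.90 ± 0.16 in B6 and 9.09 ± 0.09 in NOD CD11b+ cDC (mean and SD, n = 3), with no overlap, and lay between 9.66 and 9.76 on all 6 CD8+ arrays. Its interaction was 0.84 ± 0.12 (adjusted p = 0.00133).

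The opposite pattern was a gene high in NOD CD11b+ cDC alone or there most. For 41 of the 88 negative genes the 3 arrays of NOD CD11b+ cDC lay above all 9 others. This count also describes calls made on the same arrays, without a share over all genes tested. Trem1, an activating receptor of myeloid cells that amplifies inflammation, measured 6.91, 7.41 and 7.70 in NOD CD11b+ cDC, 4.17, 4.98 and 4.59 in B6 CD11b+ cDC, 4.24, 3.82 and 4.24 in B6 CD8+ cDC and 4.32, 4.57 and 4.35 in NOD CD8+ cDC. Only the NOD CD11b+ arrays lay above the medians of the arrays, so that Trem1 was tested through that group alone. The interaction was -2.44 ± 0.30 (adjusted p = 0.000299).

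Adamdec1, a secreted metalloprotease of macrophages and dendritic cells, had the most negative interaction. Its values were 9.23, 9.40 and 9.19 in NOD CD11b+ cDC and 6.44, 7.63 and 6.60 in B6 CD11b+ cDC. In CD8+ cDC the strains overlapped, with 4.78, 6.11 and 5.81 in B6 and 4.94, 5.41 and 5.27 in NOD. The interaction was -2.74 ± 0.43 (adjusted p = 0.00263), and Adamdec1 rose in NOD CD11b+ cDC by 2.38 ± 0.30.

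Vsx1, a homeobox factor known from the retina, measured 8.20, 8.28 and 8.08 in NOD CD11b+ cDC and 5.03, 5.30 and 5.27 in B6 CD11b+ cDC. It was also slightly higher in NOD CD8+ cDC, at 5.72, 5.58 and 5.79 against 4.90, 5.33 and 5.02, without overlap. The rise was 2.99 ± 0.13 in CD11b+ and 0.61 ± 0.13 in CD8+ cDC, and the interaction was -2.37 ± 0.18 (adjusted p = 3.15e-06). Lypd1, a small Ly6-type surface protein, measured 7.77, 7.68 and 7.57 in NOD CD11b+ cDC and between 5.23 and 6.00 on the other 9 arrays, with an interaction of -2.29 ± 0.24 (adjusted p = 7.98e-05). The largest negative calls of this kind further held Nxpe5 (-1.84), the pseudogene Serpina4-ps1 (-1.80), Rnf150 (-1.69) and L3mbtl4 (-1.49). Pianp (-1.51) was also higher in NOD CD11b+ cDC, by 1.31 ± 0.14, but its CD8+ arrays of both strains lay above those of CD11b+ cDC.

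For 3 neighbouring genes the strain difference ran the same way in both subsets but was larger in CD11b+ cDC. Cygb encodes cytoglobin, a haem protein of the globin family, and St6galnac2 encodes an enzyme that adds sialic acid to glycans. On the RefSeq assembly GRCm38.p6 both lie on chromosome 11 beside BC018473, with 1 tested gene between Cygb and St6galnac2 and none between St6galnac2 and BC018473. Cygb measured 11.06, 10.95 and 11.02 in NOD CD11b+ cDC, 8.25, 7.63 and 7.94 in NOD CD8+ cDC, 7.03, 7.31 and 7.20 in B6 CD11b+ cDC and 6.26, 6.69 and 6.23 in B6 CD8+ cDC. The 4 groups did not overlap.

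Cygb rose by 3.83 ± 0.15 in CD11b+ and by 1.55 ± 0.15 in CD8+ cDC, an interaction of -2.28 ± 0.21 (adjusted p = 2.27e-05). St6galnac2 measured 10.17, 9.93 and 9.97 in NOD CD11b+ cDC, 8.12, 7.88 and 7.60 in NOD CD8+ cDC, and 6.21 to 6.72 on the 6 B6 arrays of both subsets, which overlapped. Its interaction was -2.30 ± 0.22 (adjusted p = 2.27e-05). BC018473 measured 9.63, 9.68 and 9.72 in NOD CD11b+ cDC, 8.06, 7.10 and 7.34 in NOD CD8+ cDC and 4.54 to 5.18 on the 6 B6 arrays, with an interaction of -2.43 ± 0.27 (adjusted p = 0.000124). All 3 genes were higher in both NOD groups than in either B6 group.

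Other genes differed between the strains mainly in CD8+ cDC. Il12b, the p40 subunit shared by IL-12 and IL-23, measured 9.17, 8.96 and 8.85 in B6 CD8+ cDC and 6.74, 6.39 and 6.68 in NOD CD8+ cDC. In CD11b+ cDC it measured 6.75, 6.48 and 6.67 in B6 and 6.46, 6.02 and 6.28 in NOD. The B6 CD8+ arrays stood above the other 9, among which the NOD CD8+ and B6 CD11b+ arrays overlapped. Il12b fell by 2.39 in NOD CD8+ cDC, differed by -0.38 ± 0.14 in CD11b+ cDC (adjusted p = 0.10), and had an interaction of -2.00 ± 0.19 (adjusted p = 2.65e-05).

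Icos, the co-stimulatory receptor best known from activated T cells, was low in NOD CD8+ cDC alone. It measured 7.05, 6.60 and 6.87 there against 8.18, 8.13 and 7.99 in B6 CD8+ cDC, 7.97, 7.76 and 7.86 in B6 CD11b+ cDC and 8.08, 8.08 and 8.19 in NOD CD11b+ cDC. The interaction was -1.51 ± 0.16 (adjusted p = 7.98e-05). Summed levels of 7 T cell markers overlapped between the 4 groups, at 681 to 1095. Gclc, the catalytic subunit of the enzyme that limits glutathione synthesis, measured 10.09, 10.00 and 9.77 in B6 CD8+ cDC, 8.59, 8.24 and 8.20 in NOD CD8+ cDC and 6.79 to 7.21 in CD11b+ cDC of both strains. In CD11b+ cDC the strains lay close together without overlap, with a difference of -0.20 ± 0.12 that did not pass (adjusted p = 0.42), and the interaction was -1.41 ± 0.17 (adjusted p = 0.000295). Zfp872, a zinc finger gene, measured 6.98, 6.01 and 5.86 in B6 CD8+ cDC and 3.96 to 4.58 on the other 9 arrays, with an interaction of -1.80 ± 0.31 (adjusted p = 0.00641). Those 9 arrays lay below the array medians, so that Zfp872 was tested through B6 CD8+ cDC alone.

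Cd207 encodes langerin, an endocytic lectin of Langerhans cells and of part of the CD8+ cDC. It measured 8.81, 9.10 and 9.26 in NOD CD8+ cDC, 6.33, 6.01 and 6.57 in B6 CD8+ cDC, and 4.19 to 4.84 in CD11b+ cDC, where the strains overlapped. Cd207 rose in NOD CD8+ cDC by 2.75 ± 0.17, and the interaction was 2.56 ± 0.24 (adjusted p = 2.27e-05). Itgae, the CD103 integrin chain found with langerin on part of the CD8+ subset, measured 9.88, 9.71 and 9.45 in NOD against 8.50, 8.15 and 8.44 in B6 CD8+ cDC, and 4.69 to 5.25 in CD11b+ cDC. Its interaction was 1.14 ± 0.21 (adjusted p = 0.00925), a call that ended in the fit of all 24 arrays (adjusted p = 0.241).

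Vdr, the vitamin D receptor, measured 6.80, 6.22 and 6.55 in NOD CD8+ cDC and between 4.94 and 5.40 on the other 9 arrays, with an interaction of 1.60 ± 0.21 (adjusted p = 0.000518). Those 9 arrays lay below the array medians, so that Vdr was tested through NOD CD8+ cDC alone. Pdlim4, a PDZ and LIM domain protein of the actin cytoskeleton, measured 8.08, 8.21 and 8.40 in NOD CD8+ cDC and 6.53 to 6.96 elsewhere, with an interaction of 1.59 ± 0.16 (adjusted p = 6.72e-05). Rnf121, a ubiquitin ligase, measured 8.87, 8.29 and 8.62 in NOD CD8+ cDC and 6.68 to 7.48 elsewhere, with an interaction of 1.46 ± 0.23 (adjusted p = 0.0034). In each of these 3 genes the NOD CD8+ arrays stood above the other 9, as they did for 24 positive genes in all. That count again describes calls made on the same arrays, without a share over all genes tested.

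**Figure D2:**
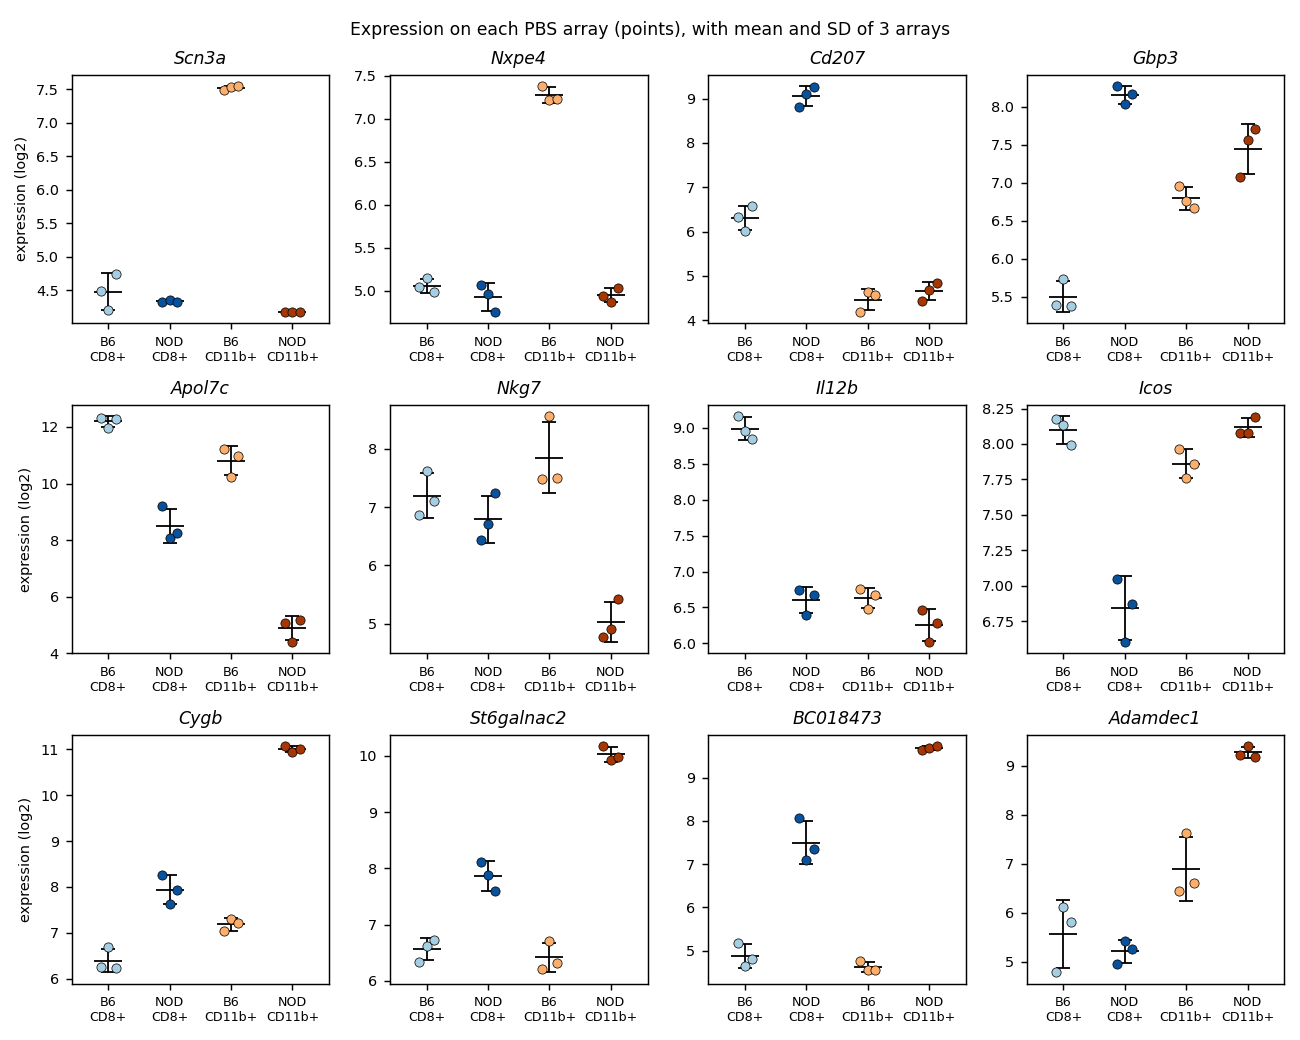
Log2 expression of 12 genes on each of the 12 PBS arrays (points, coloured by group), with the mean and SD of the 3 arrays of a group; the y axes differ between genes. Scn3a and Nxpe4 are high in B6 CD11b+ cDC alone, Il12b in B6 CD8+ cDC alone, Icos is low in NOD CD8+ cDC alone, and Cygb, St6galnac2 and BC018473 are highest in NOD CD11b+ cDC.

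For 4 genes the strain difference was called in both subsets in opposite directions. Each of these 4 interaction calls held under all 25 alternatives, which does not test whether both strain differences held. I730030J21Rik rose in NOD CD8+ cDC by 0.80 ± 0.20 and fell by 1.19 in NOD CD11b+ cDC, an interaction of 2.00 ± 0.28 (adjusted p = 0.000936). Its strains did not overlap in either subset, at 6.30, 7.05 and 6.42 against 7.41, 7.71 and 7.07 in CD8+ cDC and at 8.90, 8.87 and 8.80 against 7.29, 7.78 and 7.92 in CD11b+ cDC. Abca9, a lipid transporter of the ABC family, rose by 0.78 ± 0.16 in NOD CD8+ cDC and fell by 0.66 in NOD CD11b+ cDC, an interaction of 1.44 ± 0.22 (adjusted p = 0.0024). Slco3a1, an organic anion transporter, ran the other way. It fell by 0.67 in NOD CD8+ cDC and rose by 0.53 ± 0.10 in NOD CD11b+ cDC, an interaction of -1.19 ± 0.15 (adjusted p = 0.000294). Fam102b likewise fell by 0.42 and rose by 0.41 ± 0.11, an interaction of -0.83 ± 0.15 (adjusted p = 0.00993).

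Genes inducible by interferon were named at both ends of the strain difference. Type I interferon induces them through the factor ISGF3, which binds the interferon-stimulated response element (ISRE), and interferon regulatory factors bind related sites. The promoters of 6 positive calls are shown, chosen after their values were seen: 5 belong to the Apol, Gbp and Ifi200 families, and Cybb was added for its 3 matches to the motif below. Each runs from 250 bases before to 50 after the transcript start, from RefSeq on GRCm38.p6, a reference sequence of B6. A promoter was matched for 75 of the 92 positive and 62 of the 88 negative genes. The motif searched was GAAANNGAAA on both strands, where overlapping matches count, and capitals mark it, read on the gene's strand either way.

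Apol7c (chr15:77533266-77533565, minus strand): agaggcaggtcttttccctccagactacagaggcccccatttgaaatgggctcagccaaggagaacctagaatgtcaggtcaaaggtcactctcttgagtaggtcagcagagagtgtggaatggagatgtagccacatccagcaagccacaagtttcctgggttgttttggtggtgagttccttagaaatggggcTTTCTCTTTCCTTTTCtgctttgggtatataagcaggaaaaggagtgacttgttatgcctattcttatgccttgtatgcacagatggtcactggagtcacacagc
Gbp3 (chr3:142559794-142560093, plus strand): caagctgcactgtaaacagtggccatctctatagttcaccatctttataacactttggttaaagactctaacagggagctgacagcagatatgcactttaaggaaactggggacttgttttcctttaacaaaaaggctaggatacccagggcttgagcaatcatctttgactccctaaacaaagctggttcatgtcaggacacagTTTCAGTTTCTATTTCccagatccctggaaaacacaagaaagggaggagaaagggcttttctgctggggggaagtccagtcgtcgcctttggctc
Gbp2b (chr3:142594597-142594896, plus strand): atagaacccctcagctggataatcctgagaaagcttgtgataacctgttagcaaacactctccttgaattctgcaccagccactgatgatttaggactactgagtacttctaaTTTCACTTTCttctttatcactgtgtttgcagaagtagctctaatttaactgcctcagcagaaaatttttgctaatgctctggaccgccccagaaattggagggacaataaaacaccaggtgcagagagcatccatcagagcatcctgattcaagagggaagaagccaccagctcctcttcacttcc
Ifi206 (chr1:173491269-173491568, minus strand): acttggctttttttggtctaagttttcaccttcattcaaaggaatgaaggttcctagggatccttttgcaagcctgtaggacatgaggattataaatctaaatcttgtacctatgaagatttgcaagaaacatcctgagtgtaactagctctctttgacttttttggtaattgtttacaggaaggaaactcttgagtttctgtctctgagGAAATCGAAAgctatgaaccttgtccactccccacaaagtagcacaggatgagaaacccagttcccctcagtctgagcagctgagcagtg
Ifi213 (chr1:173599223-173599522, minus strand): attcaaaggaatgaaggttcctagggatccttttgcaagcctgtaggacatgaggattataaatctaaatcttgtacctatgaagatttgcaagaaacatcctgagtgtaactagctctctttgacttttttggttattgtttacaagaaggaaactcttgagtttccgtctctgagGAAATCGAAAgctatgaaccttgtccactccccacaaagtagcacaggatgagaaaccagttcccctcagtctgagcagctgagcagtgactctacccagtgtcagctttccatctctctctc
Cybb (chrX:9469275-9469574, minus strand): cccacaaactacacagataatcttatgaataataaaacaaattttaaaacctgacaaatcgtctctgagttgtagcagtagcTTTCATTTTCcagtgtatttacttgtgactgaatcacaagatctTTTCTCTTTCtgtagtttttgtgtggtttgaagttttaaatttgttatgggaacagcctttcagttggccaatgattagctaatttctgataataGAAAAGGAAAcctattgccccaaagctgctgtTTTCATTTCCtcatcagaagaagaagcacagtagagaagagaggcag

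The windows of Apol7c and Gbp3 each hold 2 overlapping matches, that of Cybb 3, and those of Gbp2b, Ifi206 and Ifi213 1 each. In Cybb the last capitals mark a match to GGAANNGAAA, a composite site for ETS and interferon regulatory factors, on the other strand. The ISRE letters stood in the window of 13 of the 75 positive genes with a promoter (17.3%), of 3 of the 62 negative genes (4.84%) and of 331 of the 8602 genes tested with a promoter (3.85%). They stood in 18 of 37 promoters of the interferon-stimulated list (48.6%) and in 1131 of the 32851 windows of this length that were read (3.44%). Windows on chromosome 18 were left out of every promoter count. The composite letters stood in 5.33% of positive, 6.45% of negative and 3.05% of tested genes with a promoter, and in 2.72% of the windows read. Gbp3 has a second start whose window holds neither. A match describes the reference letters and shows no binding, and the NOD sequence of these windows was not read.

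Apol7c, an apolipoprotein L family member, was lower in NOD in both subsets and more so in CD11b+ cDC. It measured 12.32, 11.98 and 12.29 in B6 CD8+ cDC, 9.20, 8.06 and 8.25 in NOD CD8+ cDC, 11.21, 10.23 and 10.98 in B6 CD11b+ cDC and 5.09, 4.40 and 5.17 in NOD CD11b+ cDC. The groups did not overlap, and those of NOD CD11b+ cDC lay below the array medians. Apol7c fell by 3.69 in CD8+ and fell by 5.92 in CD11b+ cDC, an interaction of 2.23 ± 0.39 (adjusted p = 0.0074). With robust eBayes its adjusted p was 0.093.

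Gbp3 and Gbp2b, neighbouring interferon-inducible GTPases that act against intracellular microbes, were instead higher in NOD, most so in CD8+ cDC. Gbp3 measured 5.39, 5.73 and 5.37 in B6 CD8+ cDC, 8.27, 8.03 and 8.17 in NOD CD8+ cDC, 6.96, 6.75 and 6.67 in B6 CD11b+ cDC and 7.07, 7.56 and 7.70 in NOD CD11b+ cDC. No 2 of these groups overlapped, and the subset that was higher in B6 was the lower one in NOD. The interaction of Gbp3 was 2.00 ± 0.22 (adjusted p = 8.76e-05). Gbp2b measured 5.44, 5.24 and 5.31 in B6 CD8+ cDC and 7.51, 7.62 and 7.71 in NOD CD8+ cDC. Its values in CD11b+ cDC were 5.10, 4.78 and 4.72 in B6 and 5.70, 5.38 and 5.59 in NOD, again without overlap of the strains. Only its NOD CD8+ values lay above the array medians, so that Gbp2b was tested through that group alone. The interaction was 1.59 ± 0.19 (adjusted p = 0.000167). Of 8 GTPases tested in the list only Gbp3 was called, beside 1.69% of all genes. The list does not hold Gbp2b, and its median was 0.26.

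The Ifi200 genes encode sensors and regulators that respond to DNA in the cytosol. Ifi213 measured 7.98, 7.95 and 7.52 in B6 CD11b+ cDC and 6.27, 5.13 and 5.81 in NOD CD11b+ cDC, while in CD8+ cDC the strains overlapped at 4.38 to 5.94. Its interaction was 2.58 ± 0.44 (adjusted p = 0.00551), with an adjusted p of 0.0528 under robust eBayes. Ifi206, its neighbour, measured 6.60, 7.26 and 6.76 against 4.19, 4.78 and 5.24 in CD11b+ cDC and overlapped in CD8+ cDC. Its interaction was 1.83 ± 0.41 (adjusted p = 0.0311), a call that ended without any of 8 of the 12 arrays, with an adjusted p up to 0.0927 without replicate 2 of NOD CD8+ cDC.

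Ifi205 had an interaction of the other sign. It is a cDC1-associated member at 11.03 to 11.44 on the CD8+ arrays, and measured 9.09, 8.54 and 9.13 in B6 against 9.58, 9.59 and 9.83 in NOD CD11b+ cDC. Its interaction was -0.89 ± 0.18 (adjusted p = 0.0183; 0.0544 without replicate 1 of B6 CD8+ cDC). Of 7 Ifi200 genes tested, 2 were thus called positive and 1 negative, beside 1.69% of all genes called. Members of this family, as of the Gbp and Apol families, are similar in sequence, which leaves it uncertain which member a probe reads. Whether probes cover bases that differ in NOD was not tested, for these or for any other genes.

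Over the wider list of 49 interferon-stimulated genes the strain difference had a median of -0.24 in CD8+ cDC and of -0.50 in CD11b+ cDC. In CD8+ cDC 8 of the 49 fell and none rose, beside 2.61% of all genes that fell there. In CD11b+ cDC 29 fell and none rose, beside 4.53% of all genes that fell. The interaction itself passed for 3 of 49, all positive, beside 1.69% of all genes, with a list median of 0.27 and 42 of 49 values above 0. Ly6e, a surface protein of the Ly6 family, measured 12.49, 12.48 and 12.51 in B6 CD11b+ cDC and 9.87, 10.38 and 11.35 in NOD CD11b+ cDC, against 12.69 to 12.82 and 12.29 to 12.57 in CD8+ cDC. The NOD CD11b+ arrays were the lowest and the most spread. The interaction was 1.63 ± 0.32 (adjusted p = 0.0147), with an adjusted p of 0.154 under robust eBayes.

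The other 2 calls were smaller. Epsti1 had an interaction of 0.63 ± 0.15 (adjusted p = 0.0425) and Trim30a, an antiviral TRIM protein, of 0.39 ± 0.09 (adjusted p = 0.045). Without 1 array, in 9 and 11 of the 12 cases, these calls ended, with adjusted p up to 0.133 without replicate 3 of B6 CD8+ cDC for Epsti1 and up to 0.123 without replicate 3 of NOD CD8+ cDC for Trim30a. For the remaining 46 genes of the list the interaction did not pass, so that fewer calls in CD8+ than in CD11b+ cDC are not by themselves a difference between the subsets.

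**Figure D3:**
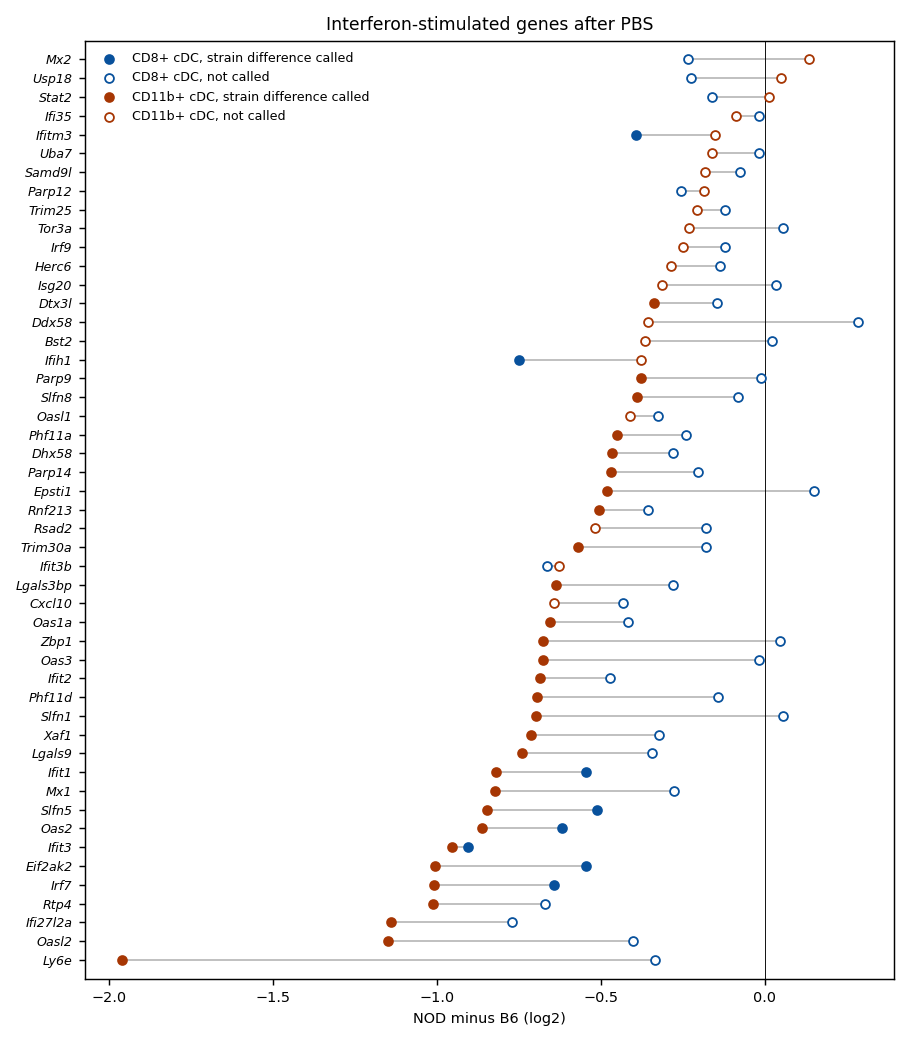
NOD minus B6 (log2 difference of means of 3 arrays each, x axis) in CD8+ cDC (blue) and CD11b+ cDC (brown) after PBS for the 49 interferon-stimulated genes tested, ordered by the CD11b+ value; filled points passed the test of that subset. Filled points stand at values below 0 in both subsets, 8 in CD8+ and 29 in CD11b+ cDC, and Ly6e is among the genes with the widest gap.

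Some genes of cytotoxic lymphocytes were among the positive calls. Gzma, a granule protease, measured 7.83, 8.80 and 6.92 in B6 CD11b+ cDC and 4.79, 5.02 and 5.56 in NOD CD11b+ cDC, while the CD8+ arrays overlapped at 5.59 to 6.37. Its interaction was 2.84 ± 0.48 (adjusted p = 0.00514), with an adjusted p of 0.0649 under robust eBayes. Nkg7, a protein of cytotoxic granules, measured 7.49, 8.56 and 7.50 in B6 CD11b+ cDC, 4.76, 4.91 and 5.42 in NOD CD11b+ cDC, 6.87, 7.63 and 7.10 in B6 CD8+ cDC and 6.44, 6.70 and 7.24 in NOD CD8+ cDC. The NOD CD11b+ arrays stood below the other 9, and the interaction was 2.42 ± 0.39 (adjusted p = 0.00388).

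Xcl1, the chemokine that binds Xcr1 and is made by NK and CD8+ T cells, measured 7.85, 8.21 and 7.57 in B6 CD11b+ cDC and 5.95, 6.33 and 6.32 in NOD CD11b+ cDC, against 7.70 to 8.58 on the 6 CD8+ arrays. Its interaction was 1.61 ± 0.30 (adjusted p = 0.00993). Ncr1, the NKp46 receptor that marks NK cells, measured 6.13, 6.78 and 6.12 against 4.15, 4.39 and 4.39 in CD11b+ cDC and 4.54, 5.12 and 4.56 against 3.72, 4.10 and 3.94 in CD8+ cDC. Only its B6 CD11b+ values lay above the array medians, so that Ncr1 was tested through that group alone. Its interaction was 1.22 ± 0.28 (adjusted p = 0.0342), a call that ended in the fit of all 24 arrays (adjusted p = 0.207) and without any of 8 arrays, up to 0.102 without replicate 3 of B6 CD8+ cDC.

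Of 9 NK cell markers tested 3 were called positive and none negative, beside 1.69% of all genes called. Of the 9 values 6 lay above 0, and the list's median was 0.95. Klrd1, the CD94 receptor chain, had an interaction of -0.67 ± 0.18 (adjusted p = 0.0898) and Klrk1, the NKG2D receptor, of -0.29 ± 0.19 (adjusted p = 0.75), so that neither passed. In CD11b+ cDC 5 of the 9 fell in NOD and none rose, beside 4.53% of all genes that fell there. In CD8+ cDC 2 fell and none rose, beside 2.61% of all genes that fell. The summed linear level of the 9 markers was 2488 to 3583 in B6 CD11b+ cDC, 2264 to 2695 in NOD CD11b+ cDC, 1385 to 1956 in B6 CD8+ cDC and 1174 to 1319 in NOD CD8+ cDC, so that the strains overlapped in CD11b+ cDC. The part of NK cells in these results was not tested.

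Markers of other cells that a CD11c+ sort could hold were counted in the same way. None of 15 B cell markers was called in the interaction. Of these markers 9 rose in NOD CD8+ cDC and 3 in NOD CD11b+ cDC, beside 3.28% and 3.81% of all genes. Their summed level was 1654 to 2938 in B6 and 3438 to 7314 in NOD CD8+ cDC, and 2235 to 3050 and 3031 to 6555 in CD11b+ cDC. None of 14 red pulp macrophage markers was called. Of these markers 2 fell in NOD CD8+ cDC and 7 in NOD CD11b+ cDC, beside 2.61% and 4.53% of all genes. Their summed level was 2288 to 5404 and 2327 to 3012 in CD8+ cDC and 4239 to 7664 and 3041 to 3366 in CD11b+ cDC of B6 and NOD. The medians of the interaction were 0.57 and 0.33, and the part of these cells in the calls of other genes was not tested. The markers of T cells (7 tested), neutrophils (4), monocytes (9) and red cells or platelets (5) gave no call. With 1.69% of all genes called, a count of 0 in lists of this size is near the background and is not a result about the markers.

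Of 12 plasmacytoid DC markers 2 were called positive, beside 1.69% of all genes called. Spib, an ETS factor of plasmacytoid DC and B cells, had an interaction of 1.13 ± 0.26 (adjusted p = 0.0342) and Cd300c, an activating receptor, of 0.63 ± 0.13 (adjusted p = 0.0197). The call of Spib ended without any of 8 arrays (adjusted p up to 0.102, without replicate 2 of NOD CD11b+ cDC), and that of Cd300c in the fit of all 24 arrays (adjusted p = 0.174). The summed level of these markers was 3066 to 3740 in B6 and 3603 to 3872 in NOD CD8+ cDC, and 3286 to 3577 and 2689 to 3204 in CD11b+ cDC.

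The interaction passed for 5 of 25 cDC1 markers and 2 of 21 cDC2 markers, beside 1.69% of all genes tested. Besides Cd207, Itgae and Ifi205, the calls among 25 cDC1 markers were Btla, an inhibitory receptor (0.67 ± 0.14, adjusted p = 0.0197), and Clec9a, the receptor for exposed actin on dead cells (0.62 ± 0.13, adjusted p = 0.0265). In NOD CD11b+ cDC, where both lie lower than in CD8+ cDC, Btla fell by 0.57 and Clec9a fell by 0.84, and both calls ended in the fit of all 24 arrays (adjusted p = 0.577 and 0.441). Xcr1 had an interaction of 0.34 ± 0.14 (adjusted p = 0.383), and Cd8a of 1.15 ± 0.33 (adjusted p = 0.128), and fell by 1.52 in NOD CD11b+ cDC. The median of the cDC1 list was 0.18, with 4 positive calls and 1 negative among the members matched by symbol. Septin3 was listed under its older symbol Sept3 and so was not matched. Its interaction was also called, at -1.38, a call that ended in the fit of all 24 arrays (adjusted p = 0.168).

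Of 21 cDC2 markers Clec12a, an inhibitory lectin (0.93 ± 0.20, adjusted p = 0.0221), and Cd4 (0.79 ± 0.16, adjusted p = 0.0165) were called, and the list's median was 0.05. Cd4 measured 7.89, 7.63 and 7.92 in NOD against 6.64, 6.85 and 6.89 in B6 CD8+ cDC and overlapped in CD11b+ cDC at 9.17 to 9.66. Both calls ended in the fit of all 24 arrays (adjusted p = 0.253 and 0.365). Itgam (0.01 ± 0.27, adjusted p = 0.997) and Clec4a4 (0.38 ± 0.31, adjusted p = 0.833) did not pass, nor did Itgax, the CD11c chain of the sort (-0.09 ± 0.10, adjusted p = 0.898).

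Cytokines and their receptors gave 4 positive and 2 negative calls among 27 tested, beside 1.69% of all genes called, with a median of 0.17. Besides Csf2rb and Il12b these were Csf2rb2, the IL-3 receptor chain next to Csf2rb (0.63 ± 0.15), Il13ra1, a receptor chain for IL-13 and IL-4 (0.80 ± 0.19), Ebi3, a subunit of IL-27 (0.60 ± 0.14), and Ifngr1, the ligand-binding chain of the interferon-gamma receptor (-0.45 ± 0.09, adjusted p = 0.0151). Ifngr1 rose in NOD CD11b+ cDC by 0.30 ± 0.06. Adjusted p-values were 0.045, 0.0444 and 0.0342 for the first 3, whose calls ended without any of 9 or 10 of the 12 arrays, reaching 0.138, 0.138 and 0.108 without replicate 3 of B6 CD8+ cDC. That of Ifngr1 ended in the fit of all 24 arrays (adjusted p = 0.919).

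Among 15 chemokines Xcl1 and Ccl24, an eosinophil attractant, were called positive, beside 1.69% of all genes called. The list's median was 0.58. Ccl24 measured 6.79, 6.80 and 6.97 in NOD against 5.43, 6.06 and 5.52 in B6 CD8+ cDC and 5.59 to 6.23 in CD11b+ cDC, with an interaction of 1.26 ± 0.27 (adjusted p = 0.0221). The call ended without any of 6 arrays, up to 0.0694 without replicate 3 of B6 CD8+ cDC. Of the 15 chemokines 6 fell in NOD CD11b+ cDC and 1 rose in NOD CD8+ cDC, beside 4.53% and 3.28% of all genes. None of 15 chemokine receptors was called in the interaction, which is near the share of all genes.

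Co-stimulation and maturation genes gave no positive and 2 negative calls among 28, beside 1.69% of all genes called, with a median of 0.15. Cd86, the B7 ligand of CD28, measured 9.70, 9.81 and 9.53 in NOD CD11b+ cDC and 9.11, 9.07 and 8.81 in B6 CD11b+ cDC, and overlapped in CD8+ cDC at 10.57 to 10.81. Its interaction was -0.69 ± 0.14 (adjusted p = 0.0173; 0.0838 in the fit of all 24 arrays). Havcr2, which encodes TIM-3, measured 10.40, 10.48 and 10.41 against 9.99, 9.87 and 9.88 in CD11b+ cDC and overlapped in CD8+ cDC. Its interaction was -0.64 ± 0.09 (adjusted p = 0.00156; 0.851 in the fit of all 24 arrays).

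Calls among the genes of antigen presentation are read beside the 1.69% of all genes tested. None of 15 MHC class II genes passed (median 0.01), and of 19 MHC class I genes H2-T10 alone did (0.89 ± 0.21, adjusted p = 0.0373). The call of H2-T10 ended without any of 9 arrays, up to 0.109 without replicate 3 of B6 CD11b+ cDC. Of 22 genes of uptake and cross-presentation Cybb, Clec9a and Snap23, a SNARE protein of membrane fusion, were called, the last with 0.45 ± 0.11 (adjusted p = 0.0388; up to 0.129 without replicate 3 of B6 CD8+ cDC). Of 22 lectins Cd207, Clec2i (1.28 ± 0.25, adjusted p = 0.013), Clec12a and Clec9a were called, all positive, with a list median of 0.23.

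Sensing genes gave a pair of neighbouring calls of opposite sign. Nlrp1a, an inflammasome sensor, measured 6.01, 5.75 and 5.88 in B6 and 7.57, 7.51 and 7.83 in NOD CD8+ cDC, and 6.65, 6.59 and 6.63 against 7.51, 7.63 and 7.60 in CD11b+ cDC. It was higher in NOD without overlap in both subsets, with an interaction of 0.80 ± 0.16 (adjusted p = 0.0138; 0.287 in the fit of all 24 arrays). Nlrp1b, its neighbour on chromosome 11, measured 7.18, 6.65 and 7.08 against 4.91, 4.70 and 4.87 in CD8+ cDC and 6.39, 6.05 and 6.25 against 4.89, 5.14 and 4.95 in CD11b+ cDC. It was lower in NOD in both subsets, with an interaction of -0.92 ± 0.21 (adjusted p = 0.0342), and the call ended without any of 8 arrays, up to 0.105 without replicate 2 of NOD CD11b+ cDC. The pair are similar in sequence, so that probes may not separate them.

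Of 25 genes of Toll-like receptors and nucleic acid sensing Tlr1 alone was called, too few to set against the 1.69% of all genes called. Its interaction was 0.89 ± 0.20 (adjusted p = 0.028, and 0.138 in the fit of all 24 arrays). Tlr9, the receptor for CpG DNA, lay at 9.25 to 9.48 in CD8+ and 9.59 to 9.86 in CD11b+ cDC, with an interaction of -0.08 ± 0.12 (adjusted p = 0.932). Il1b had an interaction of 0.06 ± 0.19 (adjusted p = 0.976), Ptger4, a prostaglandin E receptor, of 0.25 ± 0.21 (adjusted p = 0.836) and the repressor Zbtb32 of -0.15 ± 0.26 (adjusted p = 0.943).

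In sterol synthesis 2 of 23 genes were called, both negative, beside 1.69% of all genes called. The list's median was -0.10. Cyp51, the lanosterol demethylase, measured 7.93, 7.87 and 7.91 in B6 and 7.19, 6.91 and 7.02 in NOD CD8+ cDC and overlapped at 7.63 to 7.97 in CD11b+ cDC, with an interaction of -0.79 ± 0.16 (adjusted p = 0.0164). Idi1, the isopentenyl diphosphate isomerase, fell by 1.47 in CD8+ and fell by 0.73 in CD11b+ cDC, with an interaction of -0.74 ± 0.18 (adjusted p = 0.0454; up to 0.12 without replicate 2 of B6 CD11b+ cDC). In CD8+ cDC 8 genes of the list fell in NOD and 2 rose, beside 2.61% and 3.28% of all genes. In CD11b+ cDC 3 fell and none rose, beside 4.53% and 3.81%.

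Candidate genes of the NOD diabetes regions gave 3 calls of 19, beside 1.69% of all genes tested, with a median of -0.09. They were Icos, Tlr1 and Cd93, a C1q-related receptor that measured 6.98, 6.72 and 6.86 in NOD CD11b+ cDC and 5.14 to 5.89 elsewhere (-1.04 ± 0.20, adjusted p = 0.0113). Single calls came from 52 DC transcription factors on the negative side, Ahr (-0.66 ± 0.14, adjusted p = 0.0229; 0.476 in the fit of all 24 arrays), which was also the only call of 15 tolerance-associated genes, beside the positive Spib. Further single calls were Lta4h of 16 prostaglandin and leukotriene genes (-0.65 ± 0.15, adjusted p = 0.0349), Ripk3 of 15 apoptosis and necroptosis genes (0.70 ± 0.16, adjusted p = 0.0353) and Bub1b of 39 proliferation genes (0.98 ± 0.20, adjusted p = 0.0197). In the fit of all 24 arrays their adjusted p-values were 0.668, 0.077 and 0.074. The lists of ribosomal proteins (28 tested), oxidative phosphorylation (34), glycolysis (15) and immediate-early genes (30) gave no call, with medians of 0.05, 0.01, 0.11 and 0.15. With 1.69% of all genes called, 0, 1 or 2 calls in lists of 15 to 52 genes are too few to set against that share. Such counts are not a result about the lists. Matched by symbol, 43 of the 180 calls belonged to at least 1 of the 38 lists, which hold 636 of the genes tested.

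**Figure D4:**
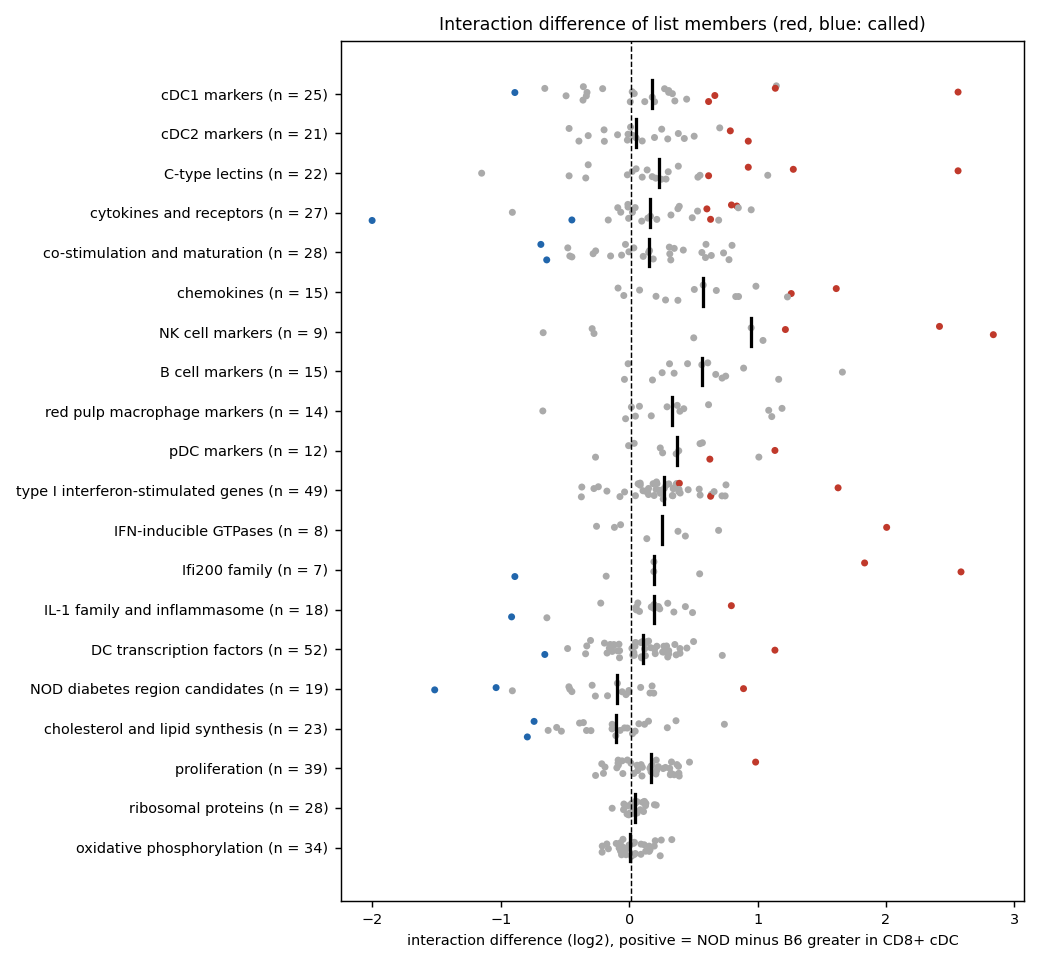
Interaction difference (log2, x axis) of each tested member of 20 gene lists, with the list's median as a black bar, the median of all genes tested as a dashed line and called members in red (positive) or blue (negative). NK cell markers (0.95), chemokines (0.58) and B cell markers (0.57) have the highest medians shown, and ribosomal and oxidative phosphorylation genes lie close to 0.

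Some called genes lay side by side on the chromosome. Of the 179 called genes placed on GRCm38.p6, 27 pairs had at most 2 tested genes between them. In 21 of these pairs both interactions had the same sign. How many such pairs other tested genes would give was not counted, so these counts show no clustering by themselves. Some pairs, such as Gbp3 with Gbp2b, come from families of similar sequence, where probes may not separate the members. The following members were chosen after their values were seen. Next to Gm4956 lay Gsta3 (1.12), next to Ly6e lay Ly6i (1.10), next to Vsx1 lay Acss1 (-0.86) and next to Gclc lay Lrrc1 (-0.89). Snap23, Lrrc57, Haus2 and Stard9 followed each other on chromosome 2 with interactions of 0.45, 0.65, 0.96 and 1.52, and E330020D12Rik, Npl, Rgs16 and Cacna1e lay together on chromosome 1 with -1.43, -1.23, -1.36 and -1.10. The 6 pairs of opposite sign included Apol7c with Apol10b (-0.91), Adamdec1 with Slc25a37 (0.76) and Klri1 (1.01) with Klra17 (-1.16).

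Read along the other axis, the interaction is the difference between the strains in CD8+ minus CD11b+. That subset difference was called for 2962 genes in B6 (27.8%) and for 3082 in NOD (28.9%). Of the 92 positive genes it was called in both strains with the same sign for 34, in NOD alone for 28, in B6 alone for 25 and in both with opposite sign for 5. Of the 88 negative genes the counts were 43, 24, 19 and 2. Gbp3 was one of the 7 genes whose subset difference turned. It was lower in CD8+ cDC by -1.30 in B6 and higher by 0.71 in NOD. Ckb, the brain-type creatine kinase, differed by 0.18 between subsets in B6 and by 1.44 in NOD, since it fell more in NOD CD11b+ cDC (-2.72) than in NOD CD8+ cDC (-1.45), with an interaction of 1.27 ± 0.15 (adjusted p = 0.000258).

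The arrays made after CpG-A share no sample with those after PBS and give the same contrast a second time. There 218 genes were called (2.04%), a count that ran from 106 without replicate 2 of NOD CD11b+ cDC to 482 without replicate 1 of NOD CD8+ cDC. Of the 180 genes called after PBS 51 were called after CpG with the same sign and none with the opposite sign, which is 28.3% of the PBS calls and 23.4% of the CpG calls. The sign was the same for 161 of the 180 (89.4%) and for 58.7% of all genes tested. Of the 92 positive genes 18 were called again, with a median of 0.92 after PBS and 0.53 after CpG, and of the 88 negative genes 33, with medians of -0.92 and -0.79.

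Scn3a had an interaction of 3.14 ± 0.18 after CpG (adjusted p = 8.8e-07), Apol7c of 4.65 ± 0.30 (adjusted p = 1.8e-06), Cygb of -3.23 ± 0.24 (adjusted p = 1.1e-05), Trem1 of -2.52 ± 0.30 (adjusted p = 0.00048), Icos of -1.38 ± 0.21 (adjusted p = 0.0042) and Vdr of 1.59 ± 0.26 (adjusted p = 0.0061). Nkg7 and Gzma had 3.61 ± 0.35 and 3.32 ± 0.44 (adjusted p = 0.00011 and 0.0011), beside a summed level of the NK cell markers of 11005 to 20578 in B6 and 2796 to 2941 in NOD CD11b+ cDC after CpG. The part of NK cells in this was not tested.

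The difference between the PBS and the CpG interaction passed for 10 genes of all tested (0.0937%). Among these only Gbp3 and Pdlim4 had been called after PBS. After CpG Gbp3 measured 8.49, 8.82 and 8.88 in B6 and 8.21, 8.46 and 8.17 in NOD CD8+ cDC, and 9.94, 9.87 and 10.02 against 9.83, 9.53 and 9.04 in CD11b+ cDC, where it was no longer higher in NOD. Its interaction was 0.02 ± 0.25 after CpG against 2.00 ± 0.22 after PBS (adjusted p of the difference = 0.012). Pdlim4 measured 8.84, 9.17 and 8.76 in B6 and 8.13, 8.63 and 8.51 in NOD CD8+ cDC after CpG, and its interaction was -0.16 ± 0.20 against 1.59 ± 0.16 (adjusted p of the difference = 0.0044). For Il12b the interaction was -0.34 ± 0.26 after CpG against -2.00 ± 0.19, a difference that did not pass (adjusted p = 0.0502). After CpG Il12b measured 9.32, 9.48 and 9.60 in B6 and 8.10, 8.04 and 8.30 in NOD CD8+ cDC, and 10.89, 10.77 and 10.80 against 10.00, 9.31 and 10.21 in CD11b+ cDC, so that it was lower in NOD in both subsets.

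**Figure D5:**
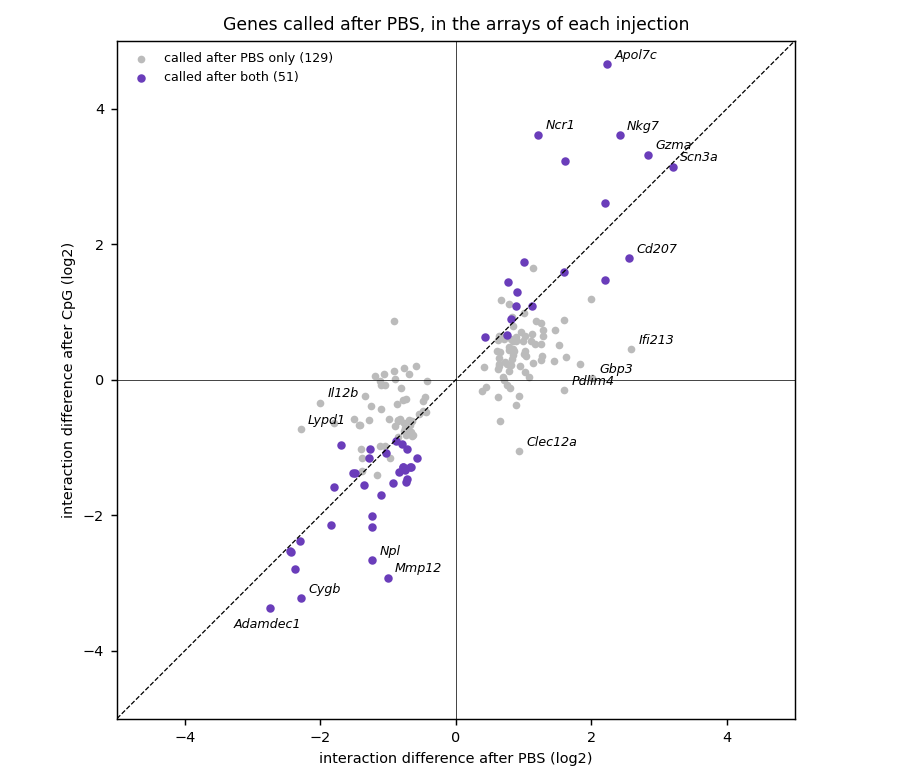
Interaction difference (log2) of the 180 genes called after PBS, from the PBS arrays (x axis) and from the separate CpG arrays (y axis), with purple points for the 51 genes called in both and a dashed line for equal values. Most points lie in the same-sign quadrants (161 of 180), while Gbp3 and Pdlim4 lie near 0 on the y axis.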

How the data were processed

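Expression was measured on 1-colour arrays of biotin-labelled cDNA, amplified from 5 ng of total RNA, of which 2.5 µg was labelled. Values were used as deposited, on the log2 scale; the authors applied RMA and used Partek (versions not listed), per the submitters' processing notes. Probe set identifiers match a whole-transcript gene array, whereas the labels give a different GeneChip, and this was not settled. Of 35556 probe sets 21789 had a single symbol (1621 several, 12146 not listed), 21698 were updated by gene ID, and 999 genes with several were each read from their brightest probe set over the PBS arrays. Testing required a value above the median of an array on 3 or more of the 12.

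In R 4.3.3, limma 3.58.1 fitted 4 group means (8 residual degrees of freedom), with eBayes and its trend and a threshold of 0.05; statmod 1.5.0 served the random block. The 12 PBS arrays were fitted alone, because the comparison is about the 4 PBS groups and the CpG arrays then lend no spread to it. Scripts were tested on simulated data. Named genes are the 15 largest calls in each direction, up to 6 called and 2 other members per list, up to 4 per class of strain difference, and a fixed set of identity and control genes; others are said to be chosen later. The comparison, the lists and the rule were chosen with earlier results of these data known. Alternatives covered the arrays fitted, filter, probe set, normalization, variance model, array weights, replicate block and each array left out. A filter asking for 3 of the 24 arrays was added after seeing the data. The numbers of the replicates were taken to pair arrays where every same-numbered pair correlated over 0.1, which held for the strains in CD8+ cDC (0.205 to 0.298) and the subsets in B6 (0.137 to 0.276) and in NOD (0.113 to 0.189), from the data alone, and not across all 4 groups.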

Additional observations from a re-analysis of the deposited data

Results flagged for a closer look

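The interaction itself is a test of a difference between groups, and it passed for 180 genes. Among them the strain difference passed in opposite directions in the subsets for I730030J21Rik (interaction 2.00), Abca9 (1.44), Fam102b (-0.83) and Slco3a1 (-1.19).

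The interaction also differed between the injections for 10 genes, by the test of PBS minus CpG. PBS minus CpG was positive for Gbp3 (1.98), Pdlim4 (1.75), Clec7a (2.01), Rgs12 (1.34), Smchd1 (1.03) and Stk32c (1.38). After CpG the interactions of Clec7a (-1.71), Rgs12 (-1.33), Smchd1 (-1.09) and Stk32c (-1.05) were called negative. After PBS the interactions of the same genes were 0.30, 0.01, -0.06 and 0.33. PBS minus CpG was negative for Thy1 (-3.05), Prf1 (-2.61), Tnfrsf9 (-1.82) and Cd1d2 (-1.60), of which Thy1 and Prf1 are markers of T or NK cells. Beyond Gbp3 and Pdlim4 these genes were not called after PBS.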

How the results depend on the processing

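Across 25 alternatives no called gene changed sign. Of the 180 calls 70 held in all alternatives that tested the gene and 29 in all but 1 of these. With all 24 arrays in 1 fit the interaction was called for 98 genes and NOD minus B6 in CD8+ cDC for 405, and 86 of the 180 calls ended. Leaving out each array in turn gave 114 to 161 genes, and 84 calls ended in at least 1 of these fits. After CpG the range was 106 to 482. For the interaction, whose arrays were not treated as paired, 13 of 18 same-numbered and 3 of 36 other-numbered pairs of arrays had deviations from their group means that correlated over 0.1 (medians 0.143 and -0.073). With the replicate block the interaction was called for 226 genes as a fixed and 202 as a random block, and after CpG for 442. In the 3 comparisons whose arrays are paired the block ended no call among the 180 genes and added 7, 4 and 4. The causes were not tested. Of the values of named genes 282 no longer passed and 20 newly passed, with 3395 on the same side and none reversed. Medians of the lists moved beyond their limit in 38 cases and stayed in 912. Signal near background and 3 arrays per group limit what could be called.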
